A study of Mus musculus with 12 samples.

Results

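The genes described here are 37 mouse genes of neural stem cells, neurons and glia, chosen by name as a gene family, with earlier results of these data known. They are 14 transcription factors that pattern the nervous system or set neural lineages, 8 genes of neural progenitors and radial glia, 8 neuronal genes, 4 astrocyte genes and 3 oligodendrocyte and myelin genes. They were followed in Bmi1 spheres, mouse embryonic fibroblasts (MEF), embryonic stem (ES) cells and induced pluripotent stem (iPS) lines, with 1 Agilent array hybridised per RNA sample. All 37 were on the array, with 73 probes, and all 37 had a probe well above background on at least 1 array, among 25413 genes that met this condition.

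The Bmi1 spheres are 1 sample, MEF transduced with Bmi1, a polycomb protein, and grown as spheres. The labels call it neural stem cell-like (NSC-like), although its description field says iPS. MEF, the starting cells, are 1 sample, and ES cells, from 129/Ola mice, are 1 sample. The 9 iPS lines are 2 made from MEF with Bmi1 and Oct4 (BOiPS), 1 made by treating cells with Shh and then transducing Oct4 (SOiPS), 2 made likewise with oxysterols (OOiPS), 2 with purmorphamine (POiPS), and 2 made from adult tail-tip fibroblasts with oxysterol and Oct4 (OOiPS-TTF). Shh is the hedgehog ligand, and oxysterols and purmorphamine activate the same pathway. Lines with the same name are numbered clones, so the spread between lines is a spread between clones and routes. The spheres, MEF and ES have no replicate, so a difference between any pair of them has no replicate check.

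Neural stem cells keep a set of SOX transcription factors active, above all SOX2 and its relatives SOX1 and SOX3, while factors such as PAX6, EMX2, LHX2, ZIC1, NKX2-2 and OLIG2 give progenitors a position along the axes of the brain and spinal cord. Radial glia carry nestin filaments, the glutamate transporter SLC1A3 and the lipid carrier FABP7. Their progeny are neurons, with the tubulin TUBB3 and synaptic proteins such as SNAP25 and SYP, and glia: astrocytes with GFAP and oligodendrocytes with myelin proteins. Several of these genes also work outside the nervous system, PAX3 in the neural crest and muscle precursors and SOX9 in cartilage.

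A level below is the log2 processed signal of a gene's brightest probe minus the array's 75th percentile, so 0 is a bright signal for that array. A signal that was not well above background is called dim, and where every array of a group was dim the difference is given as a bound, at least N-fold, computed against the lowest signal well above background on those arrays. Levels are compared between samples for the same probe only. Over the 12 arrays, 58.4 to 80% of gene spots were well above background, the sphere array being the highest, MEF at 72.8% and ES at 64.9%. The spheres were on another slide than MEF and ES, and lines lay on all 3 slides, so a slide term could be estimated only through the lines. In bulk RNA, fewer cells of a type and less RNA per cell cannot be told apart. Fibroblast genes were at an intermediate level in the spheres: the median level of 18 fibroblast genes was 2.45 in MEF, -0.57 in the spheres, -4.03 in ES and -4.43 to 0.13 in the lines. The 3 lines highest in these genes were OOiPS-TTF 2 (0.13), POiPS 2 (-0.31) and OOiPS 1 (-0.62).

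The neural label of the spheres was checked against these genes, with mixed values. Nestin, the intermediate filament gene (Nes) of neural progenitors, was at 0.46 in the spheres and 0.38 in MEF. On their brightest probes, Prom1, which encodes the stem cell surface protein CD133, Slc1a3 and Zic1 were dim in the spheres. They were well above background there in MEF, ES and all 9 lines. Another Slc1a3 probe was well above background in the spheres and dim in MEF. Pax3, Pax6, Sox8 and Ncan were higher in the spheres than in MEF, although another probe of Pax6 gave the opposite. Sox2, the neural and pluripotency factor, is not among the 37 but defines neural stem cells: it was at -1.08 in MEF, 3.72 in ES, 3.37 to 4.36 in the lines, and dim in the spheres, at least 56.1-fold below MEF. The brighter of the 2 Bmi1 probes read -0.18 in the spheres and 0.45 in MEF; the other read -1.22 in the spheres and -6.18 in MEF, and the labels do not say which part of the gene the vector carried.

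Of the 37 genes, 15 were at least 2-fold higher in the spheres than in MEF and well above background there, and 8 were at least 2-fold lower. Of all genes, 32.4% were higher and 18% lower by the same rule, against 40.5% and 21.6% of the 37. Their median difference was 0.37 log2 units, beside 0.35 over all genes. As a list they therefore stood close to the array as a whole, and the difference lay in which members were high and which were low. By role, 9 of 14 transcription factors were higher and 2 lower, 2 of 8 progenitor genes were higher and 3 lower, 2 of 8 neuronal genes were higher and 3 lower, 1 of 4 astrocyte genes was higher and none was lower, and 1 of 3 myelin genes was higher and none was lower. With slide as a fixed block, 13 members were higher and 9 lower, beside 31.9% and 20.3% of all genes. Of the earlier calls, 10 of the 15 and all 8 were kept, and Sox1, Sox3, Nkx6-1, Snap25 and Aqp4 were no longer counted as higher. With a dim signal raised to its array's floor, 14 members were higher and 8 lower, beside 28.3% and 17.4% of all genes, and Nkx2-2 was no longer counted.

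**Figure D1:**
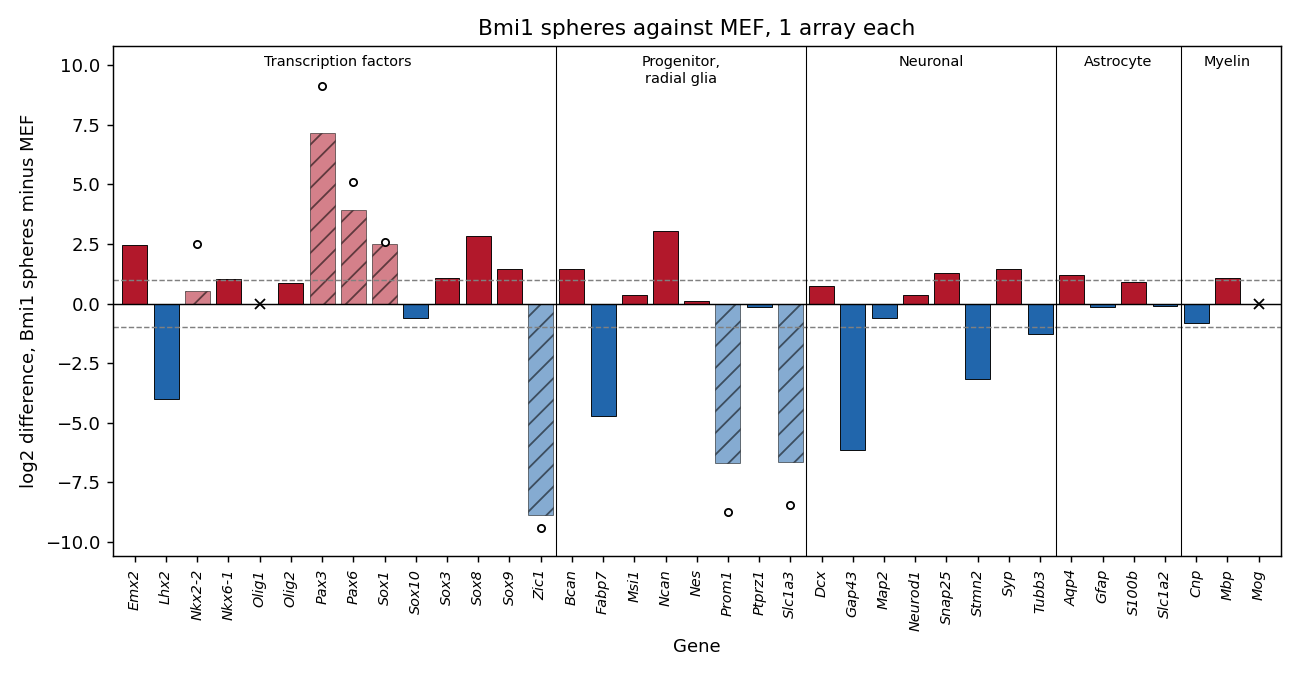
Difference between the Bmi1 spheres and MEF for each of the 37 genes, in log2 units, 1 array each, ordered by role. Hatched bars are bounds for genes dim in 1 of the samples, with the measured difference as an open circle, crosses are genes dim in both, and dashed lines mark 2-fold; the longest bars are Pax3 upward and Zic1 downward.

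Among the transcription factors, Zic1 and Pax3 differed most, in opposite directions and both against dim signals. Zic1, a zinc finger factor of the dorsal neural tube and cerebellum, was at 1.98 in MEF, 0.24 in ES and -1.29 to 1.77 in the 9 lines (median 0.70), and dim in the spheres at -7.43. The sphere array thus lay below all 11 others, at least 467-fold below MEF and at least 140-fold below ES. A second Zic1 probe read -7.10 in the spheres and 1.57 in MEF, but it overlaps the first by 40 of 60 bases and is not an independent measurement. The start of each probe is shown here because the difference rests on this stretch of the gene. They are in the mm7 build at chr9:90989326-90989385 and chr9:90989346-90989405, minus strand, and capitals mark the 10 printed bases they share.
Zic1 brightest probe: ATCCGCATGTaaagggtctggtttattcat
Zic1 second probe: aattcctagtttccatatttATCCGCATGT

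Pax3, a paired-box factor of the dorsal neural tube, neural crest and muscle precursors, was high in the spheres. It was at 0.39 in the spheres and dim in MEF (-8.72), in ES (-7.28) and in 7 of the 9 lines, with OOiPS 1 at -3.36 and OOiPS 2 at -3.77 as the lines where it was measured. The sphere array was above all others, at least 143-fold over MEF and at least 53.6-fold over ES. A second Pax3 probe, from a cDNA clone, was well above background in the spheres alone, at -6.15, and dim on the other 11 arrays. A signal of -6.15 would also have been dim on ES, SOiPS, both OOiPS, both POiPS and OOiPS-TTF 2. On those arrays the lowest signal well above background was brighter, for example -5.36 on ES. That lowest signal was under -6.15 on MEF (-6.77), both BOiPS and OOiPS-TTF 1. The 2 probes lie far apart in the gene, at chr1:78328329-78328388 for the brighter and chr1:78409036-78409095 for the other, both in mm7 on the minus strand.
Pax3 brightest probe: aaatattagtctcgatcctttgataccgtg
Pax3 second probe: agccagcagtcatatatcctctcttatttc

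Sox9, which drives gliogenesis in the nervous system and cartilage formation elsewhere, was at 4.94 in the spheres, 3.51 in MEF and 0.78 in ES. In the lines it ran from -1.20 to 2.92 with a median of 0.10, and the 2 highest, OOiPS-TTF 2 at 2.92 and POiPS 2 at 2.23, were also the 2 lines highest in fibroblast genes; the part of fibroblast RNA in this was not tested. The sphere level was the highest of the 12 arrays. Another Sox9 probe gave 4.55 in the spheres and 2.40 in MEF, a 2.15 log2 difference, while the third read -0.29 and -0.08.

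Sox8, a relative of Sox9 in glial and crest cells, was at -3.55 in the spheres and -6.39 in MEF, 7.12-fold higher. ES was at -4.29 and the lines had a median of -4.24, so the spheres lay inside the range of the lines. Sox10, the third member of this subgroup and a factor of crest and oligodendrocytes, was at -3.62 in the spheres and -3.01 in MEF, a difference under 2-fold. Sox1, among the earliest neural markers, was at -4.27 in the spheres and dim in MEF and ES, at least 5.66-fold and at least 2.12-fold higher. With slide as a fixed block these differences turned to -1.95 and -2.20 log2 units. The spheres were nevertheless far under the lines in which Sox1 was brightest, OOiPS 1 at 0.37, POiPS 1 at 0.36 and OOiPS-TTF 2 at -1.10. Sox3, the X-linked relative of Sox2, was at -2.36 in the spheres, -3.42 in MEF, -3.45 in ES and -3.45 to -2.15 in the lines.

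Pax6, which marks radial glia of the cortex and ventral spinal progenitors, depended on the probe. The brightest probe was at -2.87 in the spheres and dim in MEF, at least 15.0-fold higher, and at -2.02 in ES. It comes from a cDNA clone. Of the 2 probes to the RefSeq transcript, the brighter was lower in the spheres (-4.89) than in MEF (-3.17), a difference of -1.72 log2 units, and the other was at -6.45 in the spheres and dim in MEF. The 3 probes start as follows, shown because they lie at different places in the gene, on the plus strand of mm7 at chr2:105547907-105547966 for the clone probe, and at chr2:105546221-105547093 and chr2:105534728-105535579 for the RefSeq probes, each of which aligns over a gap.
Pax6 clone probe: tctttcttggccagcaaaagttaattgttc
Pax6 brighter RefSeq probe: cacctcggggaccacttcaacaggactcat
Pax6 dimmer RefSeq probe: atttcccgaattctgcagacccatgcagat

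Emx2, a homeobox gene of the dorsal forebrain and the urogenital tract, had the same problem. Its brightest probe was at 0.82 in the spheres, -1.62 in MEF, -2.62 in ES and -2.43 to -1.03 in the lines (median -2.12), which placed the spheres above all other arrays and 5.41-fold over MEF. Its second probe was at -0.88 in the spheres and 0.82 in MEF, a difference of -1.69. Both probes put the spheres above ES and above the median of the lines (-4.51 on the second probe); they disagreed only on MEF. The probes lie in the same RefSeq transcript, at chr19:59386325-59386384 and chr19:59386872-59386931 on the plus strand of mm7.
Emx2 brightest probe: gaggggaagaaaaaccctacaaaacaaaaa
Emx2 second probe: ttgtcgggcgaatggtgtctaaaaactgaa

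Lhx2, a LIM-homeobox gene of cortical progenitors, was at -4.97 in the spheres and -0.98 in MEF, 15.9-fold lower, and at -3.27 in ES. The sphere array was below all 9 lines, which ran from -4.39 to -2.03. Of the ventral patterning genes, Nkx2-2 was at -6.22 in the spheres and dim in MEF and ES, a bound of at least 1.46-fold over MEF. Nkx6-1 was at -2.21 in the spheres, -3.25 in MEF and -4.07 in ES. Olig2, of motor neuron and oligodendrocyte progenitors, was at -3.03 in the spheres and -3.89 in MEF, under 2-fold apart but above all 9 lines. Olig1, its neighbour and relative, was dim in the spheres, MEF and ES and was measured only in BOiPS 2 (-3.62) and SOiPS (-2.24).

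Among the progenitor and radial glia genes, Prom1 was at -0.19 in MEF, -1.31 in ES and -1.28 to 0.88 in the lines (median 0.34), and dim in the spheres at -8.92. The spheres were at least 104-fold below MEF and at least 47.8-fold below ES. The other Prom1 probe was not well above background on any array. Slc1a3, the glial glutamate transporter GLAST, was at -0.23 in MEF, 2.13 in ES and 1.48 to 3.40 in the lines (median 2.47), and dim in the spheres at -8.69. The spheres were at least 101-fold below MEF and at least 519-fold below ES. Of the 2 other Slc1a3 probes, both from cDNA clones, one was dim in the spheres (-7.02) and MEF (-6.67) and at -0.79 in ES, and the other was at -6.58 in the spheres, dim in MEF and at -4.08 in ES. These probes start as follows, as the measurements behind both differences, on the minus strand of mm7 at chr5:43314657-43314716 and chr15:8463725-8463784.
Prom1 brightest probe: ccatatgtgaagtgtgctaaacacaaacca
Slc1a3 brightest probe: gtttacccggtgtgatattttttatactaa

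**Figure D2:**
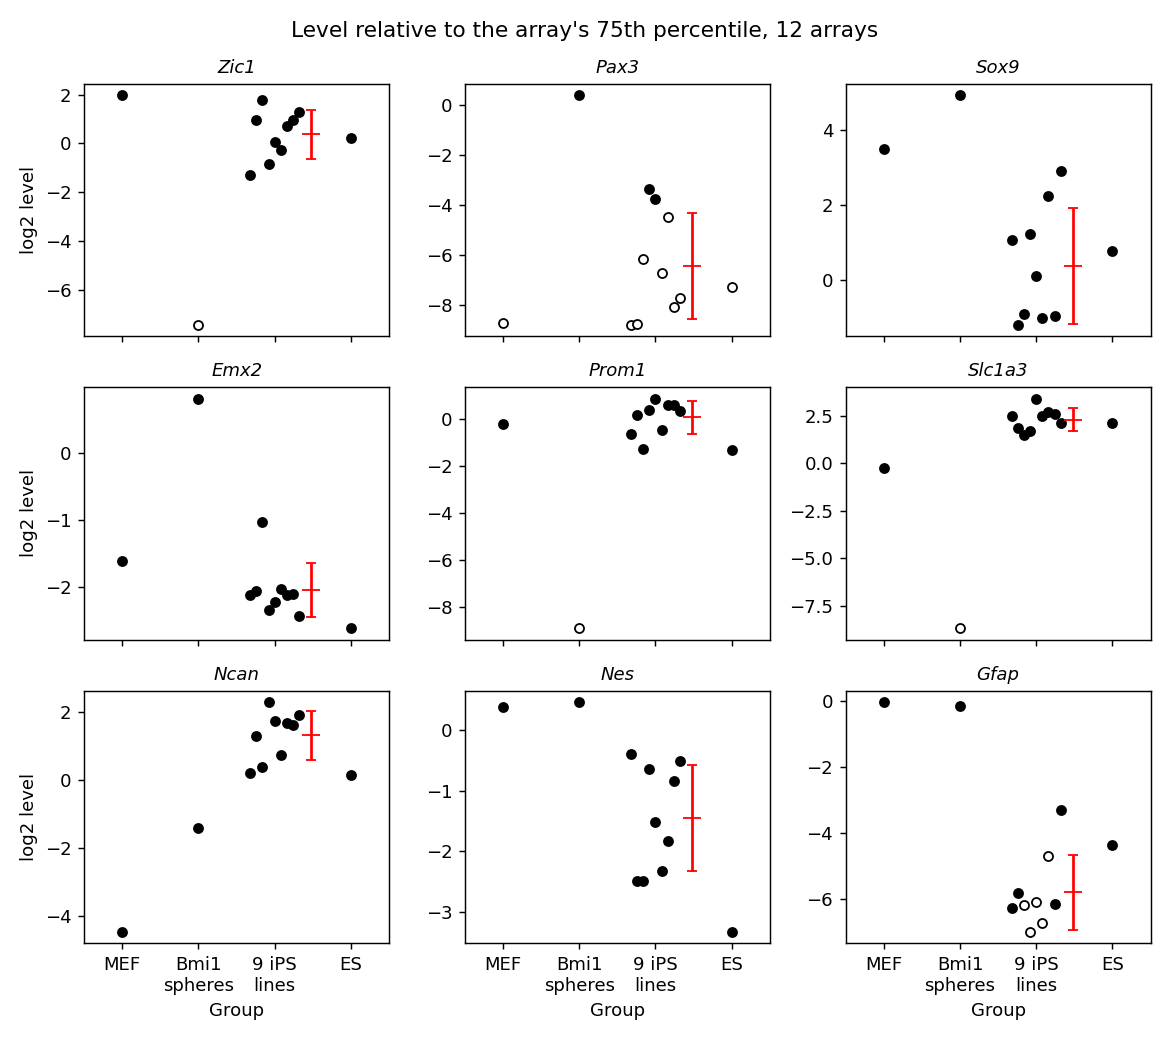
Level of 9 of the genes, as log2 processed signal minus the array's 75th percentile, in MEF, the Bmi1 spheres, the 9 iPS lines and ES; each point is 1 array, open points are dim, and the red bar is the mean and SD of the 9 lines. The spheres are dim for Zic1, Prom1 and Slc1a3 where all other arrays are well above background, and are the highest array for Pax3, Sox9, Emx2 and Nes.

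Fabp7, the brain lipid-binding protein of radial glia, was at -5.29 in the spheres and -0.59 in MEF, 26.0-fold lower. It was dim in ES and ran from -4.71 to -1.40 in the lines, so the spheres lay under every line. Ncan, the proteoglycan neurocan, was at -1.42 in the spheres, -4.47 in MEF, 0.14 in ES and 0.21 to 2.28 in the lines. The spheres were thus 8.30-fold above MEF and still below ES and all 9 lines. Bcan, brevican, was at -0.01 in the spheres, -1.45 in MEF and -1.05 to 0.00 in the lines. Nes was at 0.46 in the spheres and 0.38 in MEF, 1.06-fold apart, and lower in ES (-3.33) and the lines (-2.50 to -0.39). Msi1, an RNA-binding protein of neural progenitors, was at 0.36 in the spheres and ES, -0.02 in MEF and 0.21 to 1.19 in the lines. Ptprz1, a receptor phosphatase of radial glia, could not be compared on its brightest probe, which was saturated on all 12 arrays. Its 2 other probes were lower in the spheres than in MEF, at -5.40 against -0.98 on one and dim against -2.88 on the other.

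Among the neuronal genes, Gap43, of growing axons, was at -5.69 in the spheres and 0.44 in MEF, 70.0-fold lower, and at -3.57 in ES. It was below the 8 lines in which it was measured, and dim in POiPS 1. Stmn2, a tubulin-binding protein of growing neurites, was at -1.86 in the spheres, 1.29 in MEF, -2.13 in ES and -1.71 to 2.14 in the lines; its other probe, from a clone, was at -4.56 and -4.83 in spheres and MEF. Tubb3 was at -2.20 in the spheres, -0.91 in MEF and -3.68 in ES. These 3 genes of axon growth and the neuronal cytoskeleton were lower in the spheres than in the fibroblasts they came from.

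The synaptic members Snap25 and Syp lay below the array's 75th percentile in both samples on their brightest probes. Snap25 was at -3.86 in the spheres and -5.17 in MEF, and 2 of its 3 kept probes were measured in both and higher in the spheres. Syp was at -3.59 in the spheres and -5.02 in MEF, with the lines between -2.98 and 3.16. Dcx, of migrating neuroblasts, was at -4.54 in the spheres and -5.27 in MEF, and dim in ES and 6 of 9 lines. Neurod1, a proneural factor, was at -6.08 and -6.43. Map2, a dendritic microtubule protein, was at -6.42 and -5.80 on its brightest probe, while its 3 other probes were dim in the spheres and between -3.98 and -1.67 in MEF.

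Among the glial genes, Gfap was at -0.16 in the spheres and -0.03 in MEF, 1.10-fold apart, against -4.37 in ES and -6.98 to -3.29 in the lines, where it was dim in 5 of 9. This pattern rests on 1 of the gene's 3 kept probes. A probe to another GenBank sequence was dim in the spheres and MEF and at -4.38 in ES, and the clone probe was dim in the spheres and at -5.59 in MEF.

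S100b, a calcium-binding protein of astrocytes that other cells also carry, was at 4.27 in the spheres, 3.38 in MEF, 2.35 in ES and 2.34 to 3.92 in the lines, the spheres being the highest array. Aqp4, the astrocyte water channel, was at -2.17 in the spheres, -3.36 in MEF and -1.51 in ES. Slc1a2, the glutamate transporter GLT-1, was near -4 on its brightest probe in all 3 (-4.17, -4.06 and -4.07), but its other probes differed in sign between spheres and MEF, from -2.50 to 1.46.

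Mbp, myelin basic protein, was at 1.94 in the spheres, 0.85 in MEF and 0.87 in ES on its brightest probe. The 2 other Mbp probes were lower in the spheres, -4.21 against -0.84 in MEF on one and dim against -5.38 on the other. Cnp, a myelin enzyme also found in other cells, was at 2.39 in the spheres, below all 11 other arrays, with MEF at 3.20 and ES at 3.53. Mog, a protein of the outer myelin surface, was dim in the spheres and MEF and at -2.81 in ES and -3.42 to 0.17 in the lines on its brightest probe. That probe is named B230317G11Rik on the array and was assigned to Mog through a synonym. The probe to the Mog RefSeq transcript was at -5.30 in the spheres and -5.63 in MEF, dim in ES and dim in 7 of 9 lines. The 2 probes are set side by side because the comparisons of Mog in which a difference was called change with the choice, on the minus strand of mm7 at chr17:35166126-35166185 and chr17:35172002-35172061.
Mog probe named by synonym: cttcacattcaagatctataggaatgtagc
Mog RefSeq probe: ggacgcacagagcttctgaaagagactatc

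**Figure D3:**
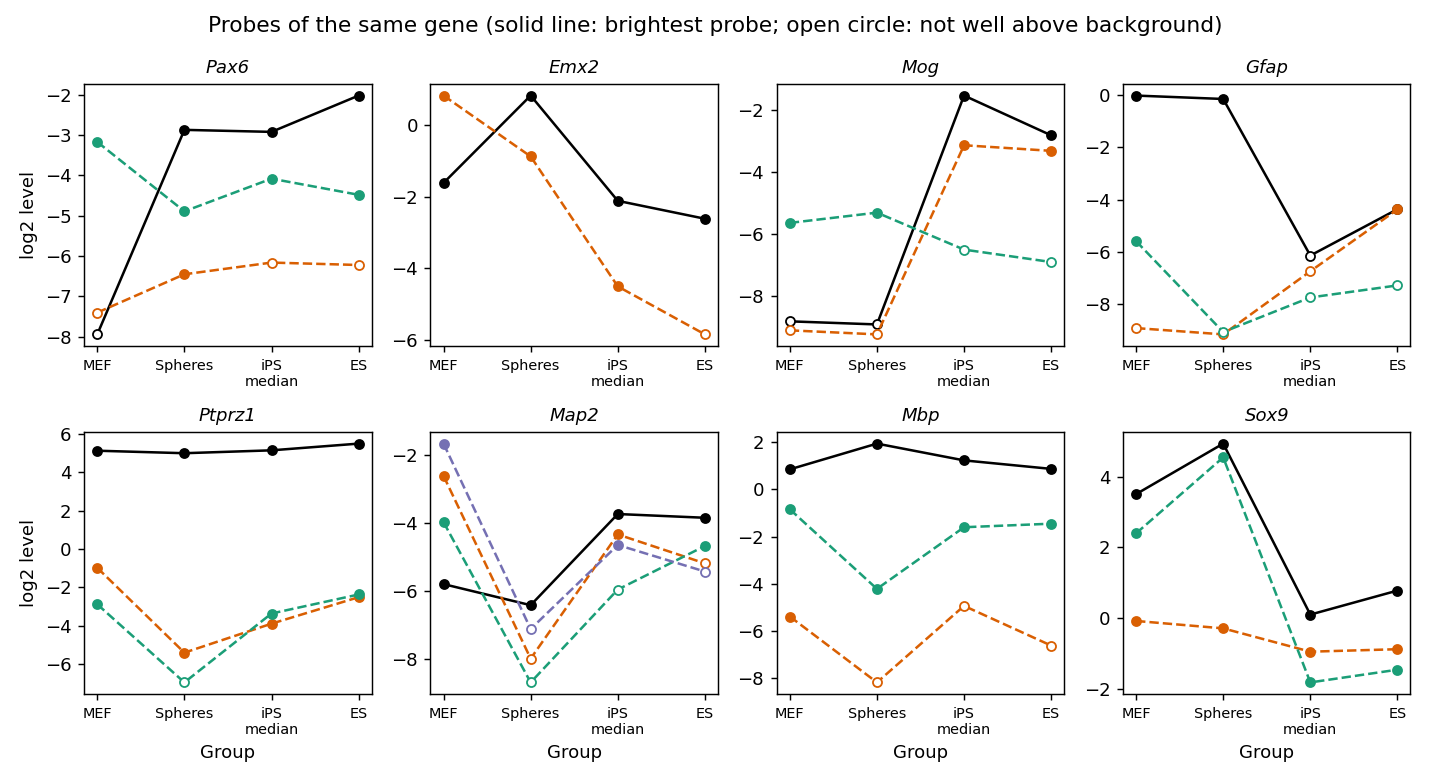
Level of each kept probe, as log2 processed signal minus the array's 75th percentile, for 8 genes with several probes, in MEF, the spheres, the lines (median of 9; open where fewer than 5 lines were well above background) and ES. Solid lines are the brightest probe. A solid line crosses a dashed one for Pax6, Emx2, Mog and Map2, and the dashed lines of Sox9 cross each other. The upper Ptprz1 probe is saturated on all arrays.

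In all, 19 of the 37 genes had several kept probes. Their probes differed by at least 2-fold in opposite directions for 4 genes between spheres and MEF (Emx2, Mbp, Pax6 and Slc1a2). They did so for 4 between spheres and ES (Gfap, Mbp, Mog and Slc1a2). Between ES and MEF they did so for 5 (Gfap, Map2, Mog, Pax6 and Slc1a2), and between lines and MEF for 4 (Gfap, Map2, Pax6 and Slc1a2). Between spheres and lines they did so for 2 (Gfap and Mog), and between lines and ES for none. Between spheres and MEF, 9 of the 19 had probes of both signs when differences of any size were counted; Zic1, whose probes overlap, Pax3 and Snap25 were among those with 1 sign.

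Against ES, 15 of the 37 genes were at least 2-fold higher in the spheres and 11 lower, beside 28.1% and 21.2% of all genes. With a dim signal raised to its array's floor, 13 were higher and 11 lower, beside 20.8% and 21.2% of all genes. Fabp7 and Dcx, dim in ES, were no longer counted, with bounds of at least 1.05-fold and at least 1.77-fold. The largest differences upward were Pax3, Gfap (4.21 log2 units), Sox9 (4.16), Nes (3.79) and Emx2 (3.44). The largest downward were Slc1a3, Zic1, Prom1 and Mog, all dim in the spheres on their brightest probes. Probes disagreed for Gfap, from -4.76 to 4.21 log2 units, and for Mog, from -6.09 to 1.6. ES themselves, against MEF, were at least 2-fold higher for 9 of the 37 and lower for 13, beside 25.6% and 21.6% of all genes. ES were higher for Pax6, Mog, Ncan (4.62), Syp (3.48) and Slc1a3 (2.36). They were lower for Fabp7, Gfap (-4.34), Gap43 (-4.01), Nes (-3.71), Stmn2 (-3.42), Tubb3 (-2.76) and Sox9 (-2.73). Of these, Pax6 (-1.31 to 5.92), Mog (-1.26 to 5.99) and Gfap (-4.34 to 4.53) had probes that disagreed between ES and MEF.

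The spheres could be tested against the 9 lines with limma, in a model where a group of 1 array is assumed to vary as the lines do. At an adjusted p of 0.05, 2 of the 37 genes were higher in the spheres and 5 lower, 5.41% and 13.5% of them, beside 2.89% and 5.79% of all genes. Slc1a3 was lower by at least 584-fold (adjusted p = 2.03e-06), Prom1 by at least 125-fold (adjusted p = 2.51e-05) and Zic1 by at least 153-fold (adjusted p = 0.000704), and each was well above background in 9 of 9 lines. Mog was lower by at least 39.4-fold (adjusted p = 0.00476), but the RefSeq probe of Mog was higher by 1.05 log2 units with an adjusted p of 0.701. Ncan fell by 2.73 log2 units (SE 0.735, adjusted p = 0.0465), and its call was lost when any of 6 of the 9 lines was left out (BOiPS 2, OOiPS 2, POiPS 1, POiPS 2, OOiPS-TTF 1 or OOiPS-TTF 2).

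Emx2 was higher in the spheres by 2.87 log2 units (SE 0.487, adjusted p = 0.0045) and Gfap by 5.63 (SE 1.10, adjusted p = 0.0101), each above 9 of 9 lines. Pax3 was higher by 6.82 (SE 1.99, adjusted p = 0.0635) and Sox9 by 4.56 (SE 1.47, adjusted p = 0.0896), also above 9 of 9 lines, and neither passed. Without the 3 lines highest in fibroblast genes, both passed as well, which made 4 genes higher, beside 2.9% of all genes. On the slide of the spheres alone, with 3 lines, 1 gene was higher, Pax3, and 3 were lower, Slc1a3, Prom1 and Zic1; Emx2, Gfap, Mog and Ncan did not pass there, and 0.307% of all genes were higher and 2.56% lower. The 3 kept Gfap probes disagreed, with differences from -2.56 to 5.63 log2 units between spheres and lines. The 5.63 used dim signals of some lines at their measured values. The Gfap call was lost with the mean of all kept probes and with slide as a fixed block. Without any test, and with a dim signal known only to lie at or under its array's floor, 7 of the 37 genes (18.9%) lay above the whole range of the lines, beside 18.4% of all genes, and 11 (29.7%) below it, beside 15.3%. Of the 11, 3 were neuronal genes: Snap25, Stmn2 and Syp.

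Against MEF, the lines were higher for 5 of the 37 genes and lower for 1 by limma, 13.5% and 2.70% of them, beside 7.83% and 2.93% of all genes. Ncan rose by 5.78 log2 units (SE 0.735, adjusted p = 0.000795), from -4.47 in MEF to a mean of 1.31 ± 0.72 (SD, n = 9) in the lines. Slc1a3 rose by 2.53 (SE 0.632, adjusted p = 0.0300), from -0.23 to 2.30 ± 0.59 (SD, n = 9). Snap25 rose by 2.46 (SE 0.696, adjusted p = 0.0489), from -5.17 to -2.71 ± 0.67 (SD, n = 9), and its call was lost without any of 6 lines (BOiPS 1, SOiPS, POiPS 1, POiPS 2, OOiPS-TTF 1 or OOiPS-TTF 2). Pax6 was higher by at least 12.1-fold (adjusted p = 0.00942) and Mog by at least 36.3-fold (adjusted p = 0.00517), but the RefSeq probes of both genes gave the opposite sign and did not pass, with -1.27 for Pax6 (adjusted p = 0.341) and -0.71 for Mog (adjusted p = 0.755). Gfap, the 1 gene called lower, fell by 5.76 log2 units (SE 1.10) on its brightest probe. That probe was dim in 5 of 9 lines, whose dim signals were used at their measured values. The 3 kept Gfap probes disagreed, from -5.76 to 2.32, and the Gfap call was lost with the mean of all kept probes. Without the 2 tail-tip lines 3 genes were higher, beside 6.67% of all genes, and with slide in the model 3, beside 4.99%. Ncan, Pax6 and Mog passed both times and Slc1a3 and Snap25 neither time. Without the 3 lines highest in fibroblast genes, Sox8 passed as higher and Sox9 as lower, and Slc1a3 and Snap25 did not pass. This made 2 genes lower, beside 3.81% of all genes.

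No member passed between the lines and ES, where 0.00788% of all genes were higher and 0.0158% lower by limma; 5 of the 37 (13.5%) had an unadjusted p under 0.05, beside 4.52% of all genes. The smallest were Tubb3, at 3.11 log2 units over ES (SE 0.878, adjusted p = 0.562), and Fabp7, at least 4.64-fold over ES (adjusted p = 0.589). The median 95% interval for a member was 1.95 log2 units to either side, 3.86-fold, and it was wider for members that varied between lines. Between the Bmi1-Oct4 lines and the mean of the Shh, oxysterol and purmorphamine lines from MEF, limma called 0 of the 37 and 0% of all genes; 2 members, Pax3 and Map2, had an unadjusted p under 0.05, 5.41% of the 37 beside 9.88% of all genes. Pax3, dim in both BOiPS lines and measured in 2 of the other 5, had the smallest adjusted p, 0.121. The median interval there was 1.55 log2 units to either side.

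Among the 9 lines themselves, the median SD of the members was 0.88 log2 units, beside 0.76 over all genes, and 4 members had an SD above 2. Sox1 varied most (SD 2.92), with OOiPS 1, POiPS 1 and OOiPS-TTF 2 well above the other 6, which lay at -4.33 or lower. Olig1 (SD 2.23) was measured in 2 lines. Syp (SD 2.16) ran from -2.98 in OOiPS-TTF 2 to 3.16 in OOiPS 1, and clones of a route differed, POiPS 1 at -1.76 and POiPS 2 at 2.03. Pax3 (SD 2.12) was measured in both OOiPS lines only. In OOiPS 1, Sox1, Sox8, Sox10 and Syp were each the highest of the 9 lines; this line was also among the 3 highest in fibroblast genes, whose part in it was not tested. The least variable members were Cnp (SD 0.24) and Ptprz1 (SD 0.29), the latter on a saturated probe.

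**Figure D4:**
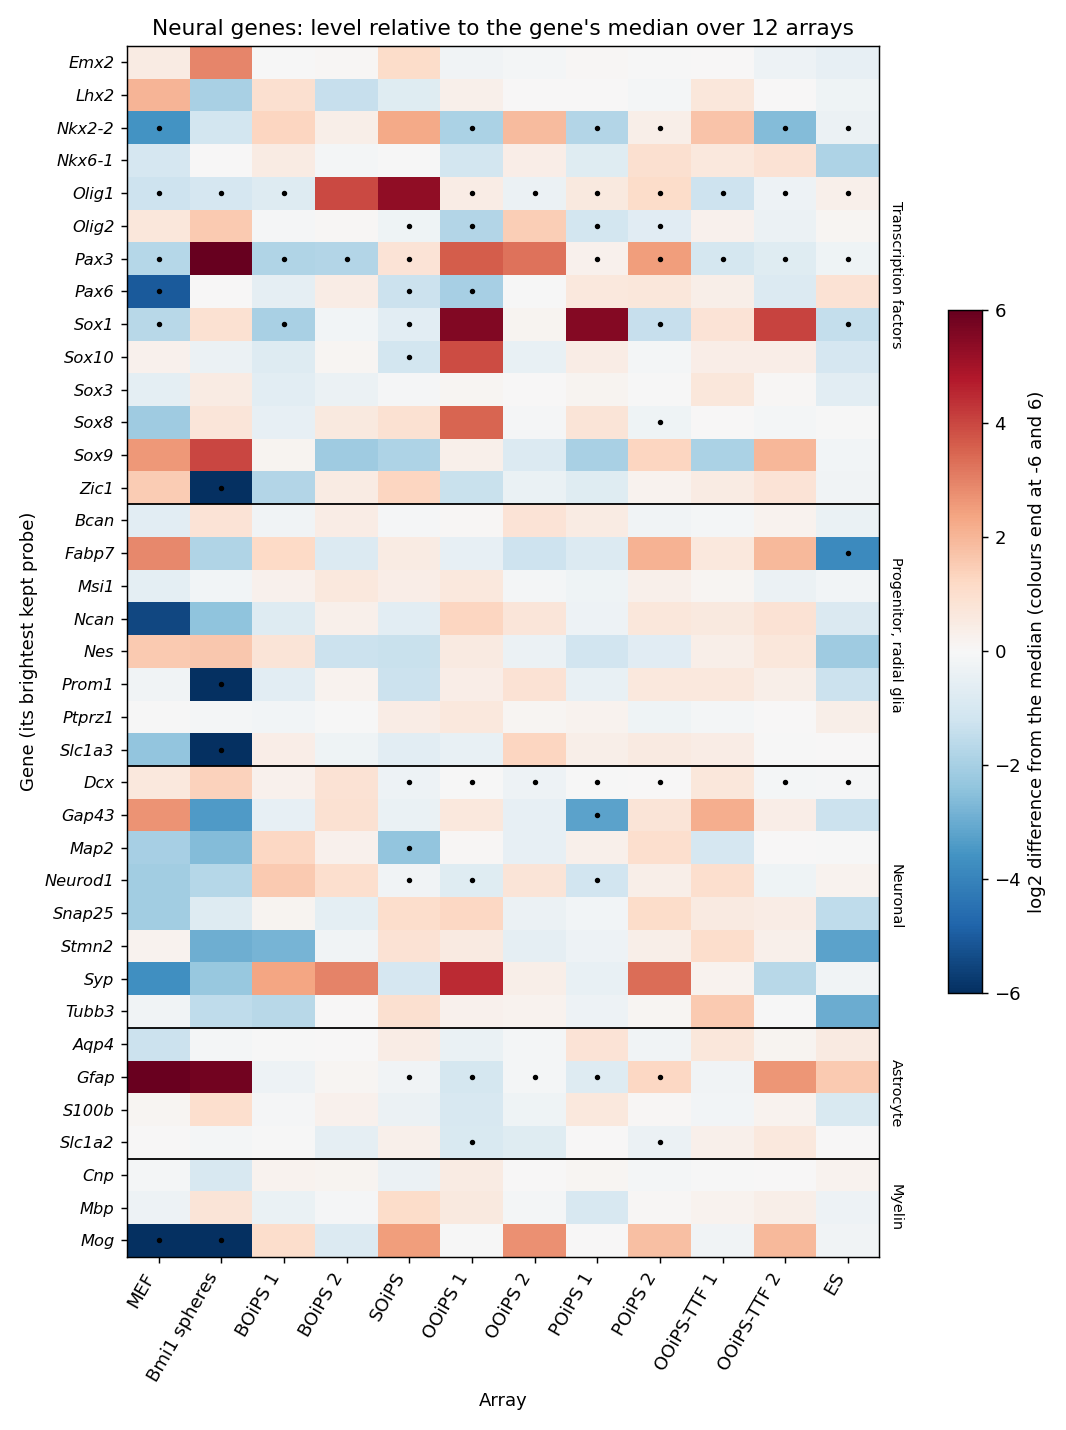
Level of the 37 genes on the 12 arrays, shown as the log2 difference of each gene's brightest probe from its own median over the arrays; rows are ordered by role and dots mark dim signals. The spheres are darkest blue for Zic1, Prom1, Slc1a3 and Mog and darkest red for Pax3 and Gfap, and OOiPS 1 is red for Sox1, Sox8, Sox10 and Syp.

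Other genes of the same cell types also held both higher and lower genes between spheres and MEF, beside 32.4% of all genes higher and 18% lower. The shares higher and lower were 23.1% and 35.9% for other neural progenitor genes and 33.3% and 21.2% for other neuronal genes. They were 33.3% and 20% for other glial genes and 25% and 18.8% for neural crest and Schwann cell genes. Of 39 other neural progenitor genes, 9 were at least 2-fold higher in the spheres and 14 lower (median 0.10). Besides Sox2, the lower ones included the receptor Egfr, at 4.48 in MEF and dim in the spheres (at least 2640-fold), Id4 (at least 731-fold), Gbx2 (-6.91 log2 units), Sox11 (-6.34) and Dach1 (-6.27). Of 33 other neuronal genes, 11 were higher and 7 lower (median 0.54), with the proneural factors Neurog1 (4.25) and Neurog2 (2.38) among the higher and Uchl1 (-6.25) among the lower. Of 15 other glial genes, 5 were higher and 3 lower (median -0.21), with Aldoc (3.58) higher and Cldn11 lower by at least 22.7-fold. Of 16 neural crest and Schwann cell genes, 4 were higher, among them Erbb3 (4.31) and Tfap2a (2.94), and 3 lower, Ednrb (-4.85), Ngfr (-2.92) and Snai2 (-2.20).

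Genes of cells outside the nervous system, and control genes, were counted by the same rule, beside 32.4% of all genes higher and 18% lower. The shares higher and lower were 5.56% and 66.7% for fibroblast genes and 28.6% and 7.14% for pluripotency genes. They were 22.2% and 22.2% for blood and immune genes, 10% and 30% for muscle genes and 10% and 10% for control genes. Of 18 fibroblast genes, 12 were lower in the spheres than in MEF and 1 higher (median -2.13); Thy1 was lower by 8.13 log2 units, Postn by at least 195-fold and Fap by at least 95.6-fold, while 16 of the 18 were still well above background. Of 14 pluripotency genes 4 were higher and 1 lower (median -0.09), with Gdf3 at least 21.0-fold higher and Pou5f1, which encodes Oct4, at -5.51 in the spheres and -6.58 in MEF against 3.63 in ES. Of 9 blood and immune genes 2 were higher and 2 lower (Cd68 2.71 higher, Tyrobp -6.72), of 10 muscle genes 1 was higher (Des, 3.07) and 3 lower (Cnn1, -3.94), and of 10 control genes 1 was higher (Tbp, 1.09) and 1 lower (Hprt, -1.13). The part of any of these cell types in the differences of the 37 genes was not tested.

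The promoters of the members were rich in CpG, the pair of bases that is often methylated and clusters in the promoters of developmental regulators. The RefSeq promoter table (GRCm38.p6) held 30 promoters of 26 of the 37 genes, with a median of 15 CpG in the 250 bases before the start, beside 6 over all 32851 promoters. At least 10 CpG were present in 60% of the members' promoters and in 37.8% of all, and the median GC content was 59% and 52.4%. Among 3 genes dim in the spheres and measured in MEF, Zic1 had 27 CpG, Prom1 had 3 and 9 in its 2 promoters and Slc1a3 had 2. The 250 bases of Zic1 and Slc1a3 are shown, as the ends of that range, with each CpG in capitals, at chr9:91365769-91366018 for Zic1 and chr15:8710808-8711057 for Slc1a3, both on the minus strand of GRCm38.p6.
Zic1 promoter: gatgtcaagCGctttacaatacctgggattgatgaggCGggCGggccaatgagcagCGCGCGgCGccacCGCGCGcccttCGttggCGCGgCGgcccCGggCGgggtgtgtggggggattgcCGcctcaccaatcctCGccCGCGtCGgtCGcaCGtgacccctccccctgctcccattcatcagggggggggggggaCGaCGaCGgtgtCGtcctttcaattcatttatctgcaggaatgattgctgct
Slc1a3 promoter: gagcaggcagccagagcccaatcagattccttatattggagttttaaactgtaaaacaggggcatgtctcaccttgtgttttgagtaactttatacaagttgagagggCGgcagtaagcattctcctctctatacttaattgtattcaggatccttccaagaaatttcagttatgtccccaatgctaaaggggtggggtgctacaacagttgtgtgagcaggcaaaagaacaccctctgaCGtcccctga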

How the data were processed

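Total RNA of 12 samples was labelled with Cy3 and hybridised to 1 one-colour Agilent array each. The deposited intensity values are processed signals, background-subtracted and unscaled between arrays, which Feature Extraction 9.5.3.1 wrote with flags for signals well above background, saturated and outlying spots, per the file headers. Earlier steps: not given in the sources used here. Probe positions are those of the mm7 build in the files; no annotation of that build was used, so exons and UTRs were not assigned.

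Outlier spots among the 43379 gene spots were left out, replicate spots averaged as log2, and the array's 75th percentile over the 41174 gene probes subtracted. Of 41174 gene probes, those well above background on at least 1 array were kept. Names came from a RefSeq table by accession (23072 probes), by symbol or synonym (9660), or as deposited (8442). The brightest kept probe stood for a gene. Samples were grouped by their labels. Comparisons of 1 array with 1 had no test: a gene was counted where it differed by 2-fold or more and its brighter signal was well above background. The others used limma 3.58.1 in R 4.3.3, with 4 classes (8 residual degrees of freedom) or, for lines against lines, 8 groups (4 residual degrees of freedom). Benjamini-Hochberg adjustment was over all genes, with a threshold of 0.05. Both models were run on simulated data, in which a gene had independent errors of the same spread on every array and no floor. Those data could not check whether a group of 1 array varies as the lines do. Bounds raise a dim signal to the array's floor, the lowest signal well above background (-7.25 to -4.18). The number of arrays limits the precision, and p-values measure only the spread between these samples.

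All 37 members are named; of other lists up to 6 genes (3 for blood, muscle and control genes) with the largest difference between spheres and MEF, plus Bmi1, Pou5f1 and Sox2; a few items chosen by this rule are not reported here. Members and lists were chosen with earlier results of these data known. Alternatives were normexp background, quantile scaling, other percentiles, filters, probes and thresholds, slide as a block, and lines left out. Clone numbers did not pair the samples: clone differences of 2 groups correlated between -0.163 and 0.244. The lines' arrays correlated at 0.889 to 0.94, so none was a duplicate.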

Additional observations from a re-analysis of the deposited data

Results flagged for a closer look

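Of the 37 genes, 5 had a line whose level stood apart from the other 8 iPS lines by Dixon's criterion, where chance alone gives about 5% of groups; this is 13.5% of the members, beside 9.79% of all genes by the same criterion. Sox10 and Sox8 were both highest in OOiPS 1, Sox10 at 0.64 with the next line at -2.82, and Sox8 at -0.78 with the next at -3.34. Emx2 was highest in SOiPS, at -1.03, with the next line at -2.04. Gap43 was lowest in POiPS 1, at -5.47 and dim, with the next line at -2.76. Stmn2 was lowest in BOiPS 1, at -1.71, with the next line at 0.53.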

How the results depend on the processing

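Of the values of single members under the alternatives, 935 kept their direction and side of the threshold or moved by less than the spread, 62 moved, 40 lost their call and 15 reversed. For comparisons of 1 array with 1, only the size of the difference was judged, so lost calls were not counted there. The 3-fold threshold and the pooled limma fit leave that difference unchanged, so their values always fell among the 935. With normexp background, 9 members were higher in the spheres than in MEF, beside 19.8% of all genes, and 2 in the lines than in MEF, beside 6.76%. At 3-fold, 7 were higher in the spheres than in MEF and 9 than in ES, beside 22.4% and 18% of all genes. With limma and a pooled spread in place of the 2-fold rule, 0 members were higher and 3 lower in spheres against MEF, beside 1.97% and 1.94% of all genes. In spheres against ES 1 was higher and 3 lower, beside 1.18% and 3.52%. In ES against MEF 2 were higher and 1 lower, beside 4.47% and 1.13%. Against the lines, the spheres had 4 higher members without the 3 lines highest in fibroblast genes (an alternative chosen after seeing the data), beside 2.9% of all genes. On the arrays of the sphere slide 1 was higher and 3 lower, beside 0.307% and 2.56%. Leaving out each line in turn gave 2 to 3 higher and 4 to 6 lower, beside 2.22% to 3.25% and 5.18% to 6.6%. For lines against MEF, 3 members were higher with slide as a fixed block, beside 4.99% of all genes, and 3 without the tail-tip lines, beside 6.67%. The brightest probe that had a RefSeq accession (also chosen after seeing the data) gave 2 higher, beside 7.48%. A line left out gave 4 to 6 higher, beside 6.94% to 9.34%. In each of these settings 1 was lower, beside 1.95% to 3.56%. Without the 3 lines highest in fibroblast genes 2 were lower, beside 3.81%. Leaving out a line left lines against ES, and Bmi1-Oct4 against hedgehog-agonist lines, at 0 called members.

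With the mean of all kept probes, Mbp turned to -1.69 in spheres against MEF and -1.08 against ES, Gfap to -0.78 in spheres against ES and Map2 to -1.27 in ES against MEF. With the RefSeq probe, Pax6 turned to -1.72 in spheres against MEF, -1.31 in ES against MEF and -1.27 in lines against MEF, Map2 to -3.75 in ES against MEF, and Mog to 1.60 in spheres against ES, 1.05 in spheres against the lines, -1.26 in ES against MEF and -0.71 in lines against MEF. With slide as a fixed block, Sox1 turned to -1.95 in spheres against MEF and -2.20 against ES, and Syp to 1.23 in spheres against ES; the cause was not tested. Without a filter on dim probes, 1 member, Pax3, was lower in the Bmi1-Oct4 lines than in the hedgehog-agonist lines, in a fit that called 51 of all genes higher and 2335 lower.

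The median difference of all genes between spheres and MEF was 0.345 log2 units, 0.201 with normexp, 0.162 with quantile scaling and 0.442 with the percentile over probes detected on all arrays; for lines against MEF these were 0.383, 0.268, 0.125 and 0.436. Of all calls between lines and MEF, 72.8% were higher, 59.7% with normexp and 62.7% with quantile scaling, and between spheres and lines 33.3%, with 44.4% under normexp. With clone number as a replicate block, 0 members were called between Bmi1-Oct4 and hedgehog-agonist lines, as without it. No paired analysis was possible for the other comparisons because the spheres, MEF and ES carry no clone number. Signals were dim in most of the 9 lines for Olig1, Pax3, Dcx and Gfap.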
